A study of Mus musculus with 36 samples.

Results

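Circular RNAs (circRNAs) form when the splicing machinery joins the end of an exon back to the start of the same or an earlier exon, so that the RNA has no free ends. They resist exonucleases, accumulate in neurons, and often come from genes for synaptic proteins. The best known, Cdr1as, carries many binding sites for the microRNA miR-7 and is abundant in the brain.

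The comparison is of circular reads in mouse hippocampus on either side of lights-on: ZT21 (03:00, in the dark phase) against ZT1 (07:00, in the light phase), 4 h apart, where zeitgeber time (ZT) counts hours from lights-on. All hippocampus samples that the labels place at those 2 time points were used, 3 at ZT21 and 3 at ZT1, which makes 6 of the 36 samples of the series. The series sampled hippocampus and frontal cortex at 6 time points with 3 biological replicates each, and asks how circRNAs vary over the light-dark cycle. Both groups were mice labelled C57BL/6 with no treatment; the study's methods give the strain as C57BL6/N and describe adult males, perfused to remove blood, and whole hippocampi, which mix all cell types. Total RNA was depleted of ribosomal RNA before sequencing, and a circular read is one that crosses a head-to-tail junction. Different time points are different animals, so every p-value measures a difference against the spread between samples.

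The hippocampus listing held 23734 circRNAs, of which 5505 were kept because they were found in at least 2 replicates of one of the 6 time points. The circular reads listed were 18215, 25046 and 25564 in ZT21 replicates 1 to 3, and 19186, 29951 and 73252 in ZT1 replicates 1 to 3. After the rule on replicates, 16143, 21918 and 22429 remained at ZT21 and 17260, 26452 and 59596 at ZT1. The third ZT1 sample was thus far deeper than the other 5, and the mean number of kept reads was 20163 ± 3491 (SD, n = 3) at ZT21 and 34436 ± 22269 at ZT1, a difference with an exact permutation p of 0.4. Normalized reads, shares and fold changes below are scaled by circular reads, and numbers of reads and of circles with reads are not unless stated. Scaled values are relative to the other circles, so a change in circular RNA as a whole would not show in them. The number of all sequenced reads was not used. A further column for ZT1 replicate 3, with 14951 reads and no explanation in the labels, was left out here and serves only as an alternative. Circle counts cannot tell fewer cells of a type from less RNA per cell.

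Across the 582 circRNAs tested, Pearson's r of log2 normalized counts was 0.719 to 0.810 between pairs of ZT21 samples, 0.788 to 0.817 between pairs of ZT1 samples, and 0.674 to 0.776 between a ZT21 and a ZT1 sample. These correlations are across circRNAs, which are not independent replicates, and the samples share the same abundant circles, so they carry no p. The lower values among ZT21 pairs, 0.719 and 0.725, were those of replicate 1, the shallowest of the 3.

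The labelled tissue was checked against host genes that mark hippocampal cells. Of 10 markers of hippocampal field neurons, 5 had a kept circle, and the most abundant was Zbtb20, a transcription factor of hippocampal neurons, with 217 reads over the 6 samples. Their summed share of kept reads was 0.217%, 0.201% and 0.294% at ZT21 and 0.243%, 0.208% and 0.225% at ZT1. Fibcd1, Wfs1, Neurod1, C1ql2 and Calb1 had no kept circle. Of 8 markers of excitatory neurons, 3 had a kept circle, led by Sv2b, a synaptic vesicle protein, with 279 reads, and their shares were 0.192%, 0.205% and 0.214% at ZT21 and 0.174%, 0.185% and 0.232% at ZT1. Slc17a7, Camk2a, Neurod2, Neurod6 and Baiap2 had no kept circle.

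Other cell types left few circles. Inhibitory neurons were represented by 1 of 13 markers, Erbb4, with 27 reads, astrocytes by 2 of 11, led by Slc4a4 with 18, and oligodendrocytes by 2 of 13, led by St18 with 7. Oligodendrocyte precursors had 1 of 7 (Tnr, 5 reads), choroid plexus and ependyma 1 of 11 (Enpp2, 3 reads), and the neighbouring thalamus 1 of 6 (Ntng1, 16 reads). From ZT21 to ZT1 the mean share of kept reads fell from 0.0237% to 0.00946% for inhibitory neurons. It rose from 0.0121% to 0.0186% for astrocytes and from 0.00413% to 0.0162% for the thalamus, all on few reads. None of the 10 microglial and none of the 10 endothelial markers had a kept circle. The defining genes Gad1, Gad2, Gfap, Aqp4 and Mbp had no kept circle. Genes differ in how readily they form circles, so these counts say little about cell numbers, and the part of cell composition in the results below was not tested.

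Composition was summarised by 6 measures, each as a share of kept circular reads or at a common depth. With 3 samples against 3 the two-sided exact permutation test cannot give a p under 0.1, so no single measure could reach 0.05. Cdr1as took 5.77% (95% Wilson interval 5.42 to 6.14), 5.29% (5.0 to 5.59) and 6.38% (6.07 to 6.71) of the reads at ZT21, and 7.27% (6.89 to 7.67), 5.93% (5.65 to 6.22) and 7.07% (6.87 to 7.28) at ZT1. These intervals cover counting error only. ZT1 replicate 2 lay below ZT21 replicate 3, so the groups overlapped. The mean went from 5.81% ± 0.547 to 6.76% ± 0.722 (SD, n = 3; exact p 0.2, Benjamini-Hochberg adjusted over the 6 measures 0.36).

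The 10 most abundant circles together took 11.9%, 12.6% and 13.3% at ZT21 and 15.0%, 13.2% and 12.9% at ZT1. The groups overlapped, and the means of 12.6% ± 0.655 and 13.7% ± 1.11 differed by less than the larger spread (exact p 0.3, adjusted 0.36). At a common depth of 16143 reads, the expected number of kept circRNAs with at least 2 reads was 2399, 2385 and 2337 at ZT21 and 2484, 2463 and 2342 at ZT1, where ZT1 replicate 3 fell among the ZT21 samples (exact p 0.3, adjusted 0.36). This difference of 56.2 circles turned to -103 when all listed circRNAs were counted and to -27.6 at a common depth of 5381 reads. Circles spanning over 100 kb took 3.38% ± 0.109 at ZT21 and 3.44% ± 0.0489 at ZT1 (exact p 0.6, adjusted 0.6).

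For the other 2 measures the groups did not overlap. Circles made of a single annotated exon took 14.2% (13.6 to 14.7), 14.3% (13.8 to 14.7) and 14.9% (14.5 to 15.4) at ZT21 and 16.5% (15.9 to 17.01), 15.0% (14.6 to 15.4) and 16.0% (15.7 to 16.3) at ZT1. The lowest ZT1 sample and the highest ZT21 sample were within counting error of each other. The mean rose by 1.36 percentage points, from 14.5% ± 0.419 to 15.8% ± 0.749, with the smallest exact p the design allows, 0.1 (adjusted 0.3). Cdr1as is itself a single exon, and with it left out the rise was 0.537 points, again without overlap.

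Of 274 kept single-exon circles, 53 passed the filter on low counts, 37 higher and 16 lower at ZT1 with a median log2 fold change of 0.09, against 297 higher and 285 lower and a median of 0.01 over all 582 circles. Slc8a1, whose product exchanges sodium for calcium across the membrane, had the second most abundant of them, with 121, 142 and 138 reads at ZT21 and 138, 201 and 413 at ZT1, or 138 ± 11.2 and 164 ± 7.54 normalized reads. Its groups did not overlap, and the log2 fold change was 0.25 ± 0.23 (SE; adjusted p 0.997 by edgeR with Benjamini-Hochberg).

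Circles that lie in no annotated gene of their own strand took 0.991% (0.850 to 1.16), 0.899% (0.782 to 1.03) and 1.49% (1.34 to 1.66) of reads at ZT21 and 1.65% (1.47 to 1.85), 1.52% (1.38 to 1.67) and 1.65% (1.55 to 1.75) at ZT1. ZT21 replicate 3 lay next to the ZT1 samples, within counting error of ZT1 replicate 2. The mean was 1.13% ± 0.320 at ZT21 and 1.60% ± 0.0749 at ZT1 (exact p 0.1, adjusted 0.3). The largest contributor was a circle of 35489 nt on the unplaced scaffold JH584304.1, with 16, 19 and 96 reads at ZT21 and 69, 74 and 169 at ZT1, with overlapping groups. Of 132 kept circles without a host gene, 8 were tested, 7 higher and 1 lower at ZT1, with a median log2 fold change of 0.61.

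Cdr1as is the single-exon circle at chrX:61183248-61186174 (GRCm38, plus strand), 2927 nt long and exon 6 of 7 of transcript C230004F18Rik-206. It had 931, 1159 and 1431 reads at ZT21 and 1255, 1569 and 4213 at ZT1, the most of any circle in each of the 6 samples. Scaled by edgeR's TMM factors, these were 1197 ± 134 and 1480 ± 163 normalized reads, with overlapping groups, a log2 fold change of 0.31 ± 0.21 (SE) and an adjusted p of 0.997. Its share of all listed reads was 5.11% ± 0.485 at ZT21 and 5.84% ± 0.656 at ZT1, between 4.46% ± 1.15 at ZT13 and 6.19% ± 1.19 at ZT9, the lowest and highest hippocampus means, whose samples overlapped.

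The junction is what identifies a circle in the reads, so it is shown for Cdr1as with the last 25 bases of the exon in lower case and its first 25 bases, which follow them only in the circle, in capitals.
Cdr1as junction: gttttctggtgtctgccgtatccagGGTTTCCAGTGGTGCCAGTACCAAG
The mature mouse miR-7a, matched by name and taken from RefSeq (GRCm38.p6), is shown with its seed, bases 2 to 8, in capitals.
mmu-miR-7a-5p: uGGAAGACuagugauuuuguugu
Its seed pairs with the 7 letters GTCTTCC, which occur 123 times in the 2927 nt of the circle on the transcribed strand. A match of letters is a description and no measured binding.

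Circle by circle, edgeR called 0 of 582 tested circRNAs different between ZT21 and ZT1 at an adjusted p under 0.05 (0%), with the spread estimated from all 18 hippocampus samples. Before adjustment 15 had a p under 0.05 (2.58%), 5 higher and 10 lower at ZT1, and the smallest adjusted p was 0.591. DESeq2 on the same samples also called 0, and 11 had an unadjusted p under 0.05. The normalized reads of the groups did not overlap for 39 circles higher (6.7%) and 31 lower (5.33%) at ZT1, 70 in all (12%). The 582 circles held 59.0% of the kept reads of the 6 samples, and the other circles were too thinly covered to be tested one by one.

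**Figure D1:**
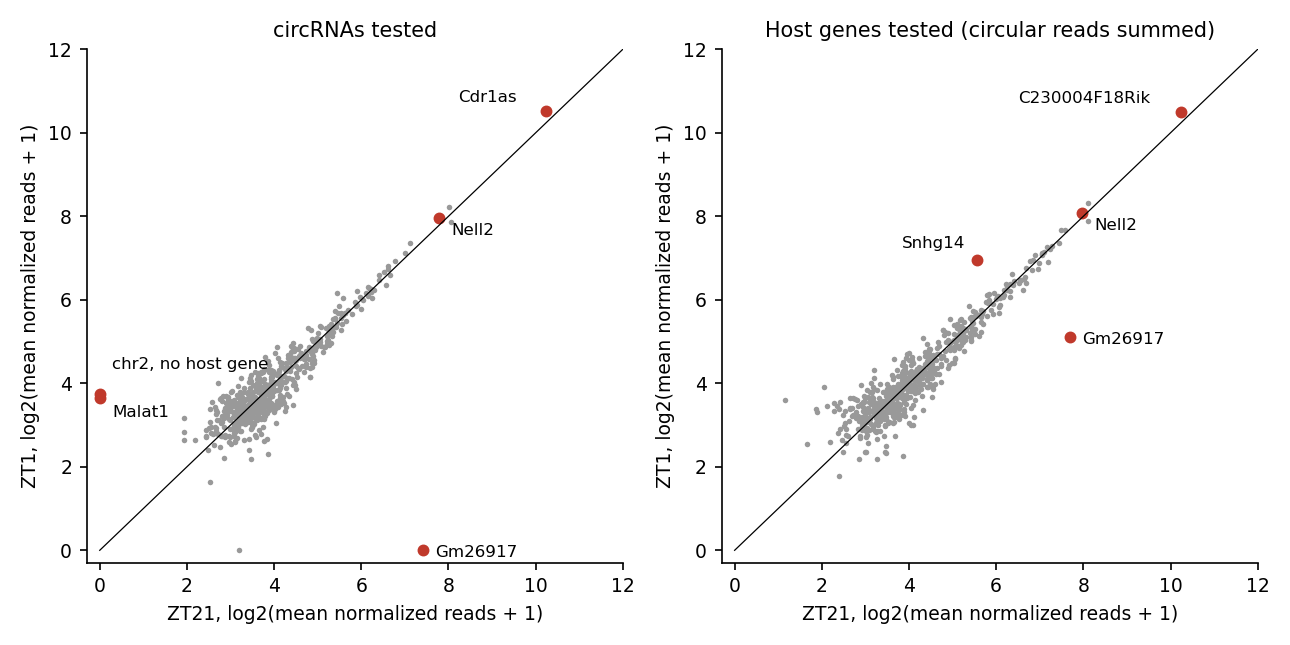
Mean normalized circular reads at ZT21 (x axis) and ZT1 (y axis), as log2 of the mean plus 1, for the 582 circRNAs (left) and the 618 host genes (right) tested, with the line of equality. Most points follow the line, and the labelled Gm26917, Malat1 and chromosome 2 circles lie on an axis because 1 group had no read.

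Of the other 9 most abundant circles, 8 gave values close to equality. The Tulp4 circle at chr17:6137211-6139156, from a gene for a tubby-like protein, had 213, 277 and 266 reads at ZT21 and 256, 321 and 819 at ZT1, with overlapping groups and a log2 fold change of 0.20 ± 0.24. The Gigyf2 circle, exons 4 to 8 of a gene for a translational repressor, had 241, 278 and 252 reads at ZT21 and 176, 287 and 644 at ZT1, and a log2 fold change of -0.19 ± 0.18. Circles of Ankib1 (a ubiquitin ligase of the RING family), Dtnb (dystrobrevin beta), Tcf20 (a transcriptional coregulator), Kat6b (a histone acetyltransferase) and Elf2 (an ETS transcription factor), with Slc8a1, had log2 fold changes from 0.12 to 0.25. Only the Slc8a1 and Elf2 groups did not overlap. Adjusted p was 0.997 for each of these 8 circles.

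Nell2, whose product is a secreted glycoprotein of neurons, was unlike the rest of the top 10. Its circle at chr15:95296159-95346887 joins exons 14 to 16, 345 nt in all, and had 0, 344 and 351 reads at ZT21 and 300, 446 and 0 at ZT1. Each group thus held 2 samples with at least 300 reads and 1 with none, although the deepest of the 6 was one of those without. Its log2 fold change of 0.17 ± 2.09 (adjusted p 0.997) changed sign when single replicates were left out. Over all 18 hippocampus samples it had reads in 8, each time between 1.37% and 1.71% of listed reads, and in frontal cortex in 3 of 18. The cause of this all-or-none pattern was not tested.

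The smallest p of the circle test belonged to a circle inside Gm26917, a long noncoding RNA whose gene on chromosome 17 ends 12 bases before an annotated ribosomal RNA gene. The circle at chr17:39844698-39844867 (plus strand, 170 nt) had 146, 171 and 174 reads at ZT21 and 0, 0 and 0 at ZT1. The file lists no count under 2, so a 0 may stand for 1 read. Normalized, it had 169 ± 11.5 reads at ZT21 and was at least 69.1-fold lower at ZT1, taking 3 counts per library as the floor. The bound fails where a listed 0 hides more reads than that, which was not tested. At ZT5, replicates 1 to 3 had 0, 194 and 0 reads of this circle. In the edgeR fit of 18 samples the p was 0.00114 and the adjusted p 0.591, and DESeq2 on the same samples gave no p for it.

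That fit estimates the spread over all 6 time points, and elsewhere the circle came and went between replicates, with reads in 8 of the 18 samples. It was in 3 of 3 samples at ZT13 and ZT21, in 1 of 3 at ZT5 and at ZT17, and in 0 of 3 at ZT9 and ZT1. Where only the 6 samples were fitted, the adjusted p was 8.59e-07 with edgeR and 2.73e-15 with DESeq2, and in each it was the 1 circle called of 447 (0.224%). With every kept circle tested, filter omitted, it was 1 of 4 called of 5505 (0.0727%). The call therefore depends on which samples estimate the spread and on the filter.

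The junction is shown because it separates this circle from its neighbours; both of its ends lie within the single exon of transcript Gm26917-202, on no annotated exon boundary, with the last 25 bases in lower case and the first 25 in capitals.
Gm26917 junction: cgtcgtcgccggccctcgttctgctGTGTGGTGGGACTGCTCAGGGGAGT
Gm26917 had 9 kept circles, and of the other 8, 1 was listed at ZT21 alone, 2 at ZT1 alone and 5 at both. The circle at chr17:39845055-39845193 had 11, 9 and 16 reads at ZT21 and 3, 6 and 31 at ZT1 (log2 fold change -0.64, adjusted p 0.997), and that at chr17:39845055-39845215 had 8, 3 and 5 at ZT21 and 7, 7 and 20 at ZT1 (0.38, adjusted p 0.997). The circle at chr17:39845026-39845378, among the 5 smallest p of those lower at ZT1, had 0, 12 and 14 reads at ZT21 and none at ZT1. With the same floor it was at least 3.33-fold lower, with overlapping groups (edgeR p 0.0203, adjusted 0.997), and it was also called without a filter.

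**Figure D2:**
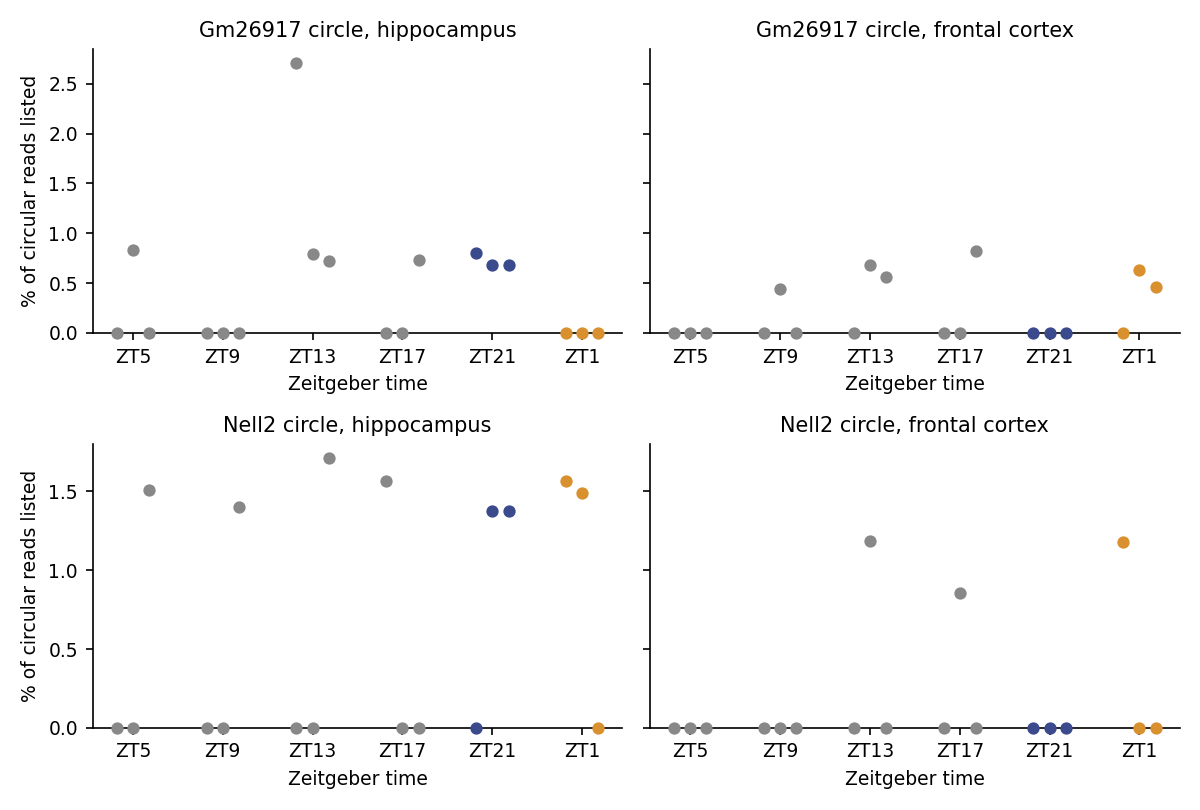
Share of listed circular reads (y axis, percent) of the Gm26917 circle at chr17:39844698-39844867 (top) and of the Nell2 circle (bottom) in each sample, by zeitgeber time (x axis), in hippocampus (left) and frontal cortex (right); 1 point is 1 sample, ZT21 in blue and ZT1 in orange. Samples lie either at 0 or well above it, and the Gm26917 circle was listed in 3 of 3 hippocampus samples of ZT21 and 0 of 3 of ZT1.

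On the higher side, the smallest p belonged to a circle at chr2:32336189-32337754 (plus strand, 1566 nt), which lies in no gene of its strand and opposite Dnm1, the gene for the endocytic GTPase dynamin 1. It had 0, 0 and 0 reads at ZT21 and 12, 16 and 24 at ZT1, or 12.4 ± 2.98 normalized reads at ZT1. With the same floor this was at least 3.96-fold higher (edgeR p 0.00203, adjusted 0.591). It had reads in 12 of the 18 hippocampus samples, ZT21 being the time point with none. Next came a circle of 192 nt in Malat1, an abundant nuclear noncoding RNA, at chr19:5801695-5801886 (minus strand). It had 0, 0 and 0 reads at ZT21 and 14, 8 and 28 at ZT1, at least 3.68-fold higher with the same floor (edgeR p 0.0034, adjusted 0.659). It had reads in 8 of the 18 samples, and both circles were called without a filter, at adjusted p of 1.15e-04 and 9.08e-04.

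The junction of the Malat1 circle, chosen for display after its values were seen, is printed in the same way, last 25 bases in lower case and first 25 in capitals; it lies within the single exon of Malat1-201.
Malat1 junction: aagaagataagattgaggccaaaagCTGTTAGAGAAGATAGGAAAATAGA
The ends of the Gm26917, Malat1 and chromosome 2 circles matched 0 exon boundaries. By a different measure, 861 of all 5505 kept circles did not have both ends on exon boundaries of the same transcript. That count can include circles whose ends lie on boundaries of different transcripts.

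Circles with reads in both groups moved less. A longer Tulp4 circle at chr17:6137211-6185298 had 6, 9 and 10 reads at ZT21 and 14, 18 and 46 at ZT1, a log2 fold change of 0.95 ± 0.32 without overlap (p 0.00672, adjusted 0.978). A circle of Trpc6, a receptor-operated cation channel, joins exons 4 to 10 and had 15, 33 and 31 reads at ZT21 and 33, 42 and 108 at ZT1 (0.54 ± 0.23, adjusted p 0.997). Both were higher in each ZT1 sample than in every ZT21 sample after scaling.

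Among those lower at ZT1, the predicted gene Gm1043 had a circle of exons 29 to 33 with 18, 20 and 14 reads at ZT21 and 8, 9 and 27 at ZT1 (-0.93 ± 0.33, adjusted p 0.997). Psmd2, a subunit of the proteasome's regulatory particle, had a circle of exons 9 to 11 with 12, 15 and 12 reads at ZT21 and 2, 3 and 18 at ZT1 (-1.54 ± 0.60, adjusted p 0.997), with -2.36 to -1.32 when single replicates were left out. Rps6ka5, a kinase that phosphorylates histone H3 and CREB, had a circle of exons 4 to 7 with 23, 18 and 17 reads at ZT21 and 11, 12 and 19 at ZT1 (-1.08 ± 0.43, adjusted p 0.997). The normalized reads of none of these 3 circles overlapped between the groups, and none was called under an alternative.

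Detection was counted without scaling for depth. Of the 5505 kept circRNAs, 1077 had reads in all 6 samples, 2113 were found in at least 2 replicates of both time points, 1733 in at least 2 at ZT1 alone and 585 in at least 2 at ZT21 alone. In all 3 samples of ZT1 and none of ZT21 there were 109 (1.98%), and 11 in the opposite case (0.2%), with medians of 10 and 8 reads over the 3 samples. At 30 reads or more there were 3 and 1. The larger total of reads at ZT1 moves with this excess, and its part in it was not tested.

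Summing the kept circles of each host gene gives more reads per test. Of 2362 host genes with a kept circle, 618 passed the filter on low counts, and edgeR called 1 of them (0.162%), Snhg14, higher at ZT1. At an unadjusted p under 0.05 there were 23 (3.72%), 13 higher and 10 lower, and the groups did not overlap for 42 higher (6.8%) and 39 lower (6.31%), 81 in all (13.1%). DESeq2 called the same 1 gene.

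Snhg14 (chr7:59307924-59975759, minus strand) is the imprinted noncoding host gene of the snoRNA clusters of the Prader-Willi and Angelman region, and its far end runs antisense to Ube3a. The annotation places 208 snoRNA genes of its strand within it. Its kept circles had 31, 46 and 61 reads at ZT21 and 105, 154 and 315 at ZT1. As shares of kept reads these were 0.192% (0.135 to 0.272), 0.210% (0.157 to 0.280) and 0.272% (0.212 to 0.349) at ZT21 and 0.608% (0.503 to 0.736), 0.582% (0.497 to 0.681) and 0.529% (0.473 to 0.590) at ZT1. Every ZT1 share lay above every ZT21 share with no overlap of their intervals.

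Normalized, Snhg14 had 46.3 ± 8.88 circular reads at ZT21 and 122 ± 8.13 at ZT1 (SD, n = 3), a log2 fold change of 1.38 ± 0.29 (SE), higher in 3 of 3 samples (p 4.94e-05, adjusted 0.0306 by edgeR with Benjamini-Hochberg). This sum held kept circles only, and a circle could be kept through ZT1, the higher group. All listed Snhg14 circles had 63, 85 and 97 reads at ZT21 and 147, 236 and 717 at ZT1. ZT1 replicate 1, with 19186 listed reads, had 147 Snhg14 reads in all, and ZT21 replicates 2 and 3, with 25046 and 25564 listed reads, had 85 and 97; the part of depth was not tested. The call rested on all 6 samples. With any 1 of them left out the log2 fold change was 1.25 to 1.53 and the adjusted p 0.0818 to 0.243: 0.243, 0.178 and 0.0818 without ZT21 replicates 1, 2 and 3, and 0.221, 0.195 and 0.0966 without ZT1 replicates 1, 2 and 3. With the further column in place of ZT1 replicate 3 the log2 fold change was 1.21 and the adjusted p 0.179, and with that column also in the rule on replicates, chosen after seeing the data, they were 0.98 and 0.892.

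Snhg14 had 76 kept circles and 485 listed ones, and a circle could be kept on the replicates of ZT1 alone. The 42 kept circles spanning over 20 kb had 16, 19 and 24 reads at ZT21 and 52, 55 and 105 at ZT1, and the 66 whose ends matched no exon boundary had 25, 31 and 56 at ZT21 and 84, 125 and 252 at ZT1. One of those, at chr7:59496310-59497801, was among the 5 smallest p on the higher side of the circle test, with 2, 2 and 13 reads at ZT21 and 12, 19 and 39 at ZT1 (1.38 ± 0.50, adjusted p 0.997). Its log2 fold change was 0.93 without ZT21 replicate 2 and 2.73 without ZT21 replicate 3 (adjusted p 0.0947).

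The commonest length was 147 nt, shared by 9 kept circles, which had 3, 10 and 8 reads at ZT21 and 15, 41 and 74 at ZT1. The annotation has 13 Snhg14 exons of that length, and 4 of the 9 circles match one exactly. Their sequences are shown because they are near copies of one another, so a short read may be placed on the wrong copy. The count of a single circle is therefore uncertain, and the effect on the sum was not tested. Bases that differ among the 4 are in capitals, and all are on the minus strand of GRCm38.
Snhg14 chr7:59676338-59676484: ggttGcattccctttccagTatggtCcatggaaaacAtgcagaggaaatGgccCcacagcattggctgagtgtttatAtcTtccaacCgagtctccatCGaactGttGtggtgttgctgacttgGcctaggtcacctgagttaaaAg
Snhg14 chr7:59678859-59679005: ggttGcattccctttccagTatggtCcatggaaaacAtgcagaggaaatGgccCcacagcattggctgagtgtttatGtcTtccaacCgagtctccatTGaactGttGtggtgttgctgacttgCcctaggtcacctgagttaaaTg
Snhg14 chr7:59681404-59681550: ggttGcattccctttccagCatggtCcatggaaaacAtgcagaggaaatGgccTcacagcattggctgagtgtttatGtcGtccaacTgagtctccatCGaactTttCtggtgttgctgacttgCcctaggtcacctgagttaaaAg
Snhg14 chr7:59711359-59711505: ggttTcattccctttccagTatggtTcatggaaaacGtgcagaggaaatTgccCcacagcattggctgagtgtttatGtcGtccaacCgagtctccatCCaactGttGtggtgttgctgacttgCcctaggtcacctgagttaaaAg
They differ at 15 of 147 positions and are 93.2% to 97.3% identical in pairs. In the order shown, they had 0, 0 and 3, then 0, 3 and 0, then 0, 0 and 0, and last 0, 0 and 0 reads at ZT21, and 2, 6 and 8, then 4, 0 and 7, then 0, 4 and 3, and last 5, 8 and 9 at ZT1.

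Over the light-dark cycle, all listed Snhg14 circles together took 0.355% ± 0.0215 of listed reads at ZT21, the lowest hippocampus mean, and 0.844% ± 0.117 at ZT1, the highest (SD, n = 3). Between them came ZT9 (0.412% ± 0.219), ZT13 (0.547% ± 0.138), ZT17 (0.577% ± 0.145) and ZT5 (0.664% ± 0.0753), and neighbours among these 4 lay within their spread. ZT21 and ZT9 did too, since 2 of the 3 ZT9 samples, at 0.249% and 0.325%, lay below every ZT21 sample. In frontal cortex the ZT21 samples had 0.784%, 0.862% and 0.787% and the ZT1 samples 0.679%, 0.893% and 0.519%, with overlapping groups. The change from ZT21 to ZT1 was 1.41 higher in hippocampus than in frontal cortex on the log2 scale (SE 0.47, p 0.00425), which did not pass correction over the 718 host genes tested (adjusted p 0.764) but did without a filter (adjusted p 0.0191).

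**Figure D3:**
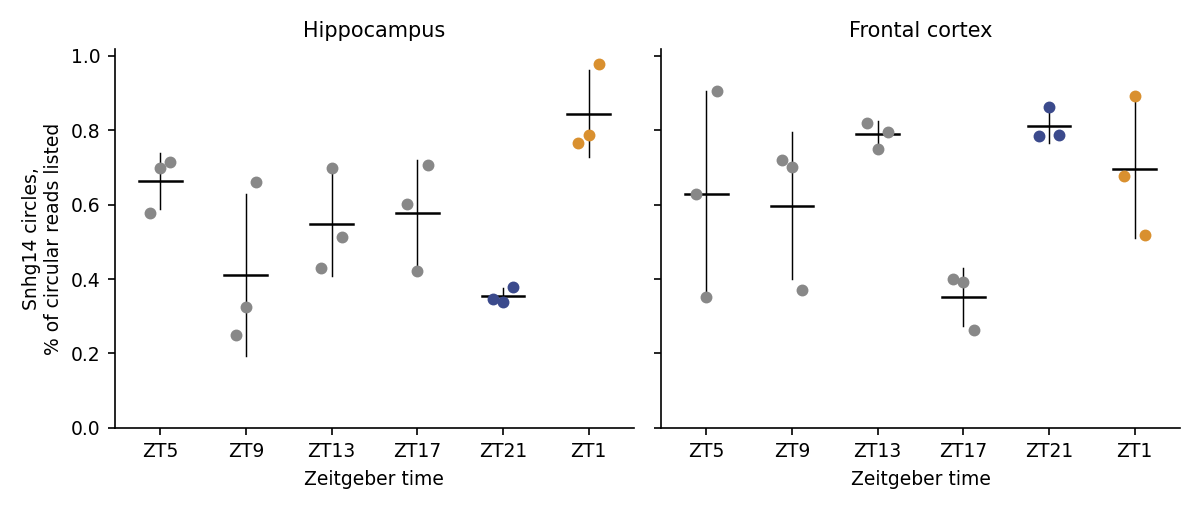
Circular reads of all listed Snhg14 circles as a percentage of listed circular reads (y axis) by zeitgeber time (x axis) in hippocampus (left) and frontal cortex (right); points are samples (ZT21 blue, ZT1 orange), horizontal bars means and vertical bars 1 SD of 3 samples. In hippocampus the 3 ZT21 samples sit between 0.339% and 0.379% and the 3 ZT1 samples between 0.766% and 0.979%.

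Other host genes at the top of the list were not called. Nr3c2 encodes the mineralocorticoid receptor; its 5 kept circles had 2, 4 and 2 reads at ZT21 and 4, 13 and 32 at ZT1, a log2 fold change of 1.76 ± 0.61 (p 0.00764, adjusted 0.999). Grm5, the metabotropic glutamate receptor mGluR5, had 15, 19 and 22 reads at ZT21 and 28, 40 and 92 at ZT1, or 19.0 ± 1.02 and 33.2 ± 1.32 normalized reads (0.79 ± 0.28, p 0.00887, adjusted 0.999). The groups of both genes did not overlap.

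On the lower side, Gm26917 as a whole had 178, 204 and 213 reads at ZT21 and 25, 46 and 90 at ZT1, or 204 ± 15.0 and 33.3 ± 3.04 normalized reads, a log2 fold change of -2.61 ± 0.65 (p 4.09e-04, adjusted 0.126). It was called with only the 6 samples fitted (adjusted p 7.53e-09) and without a filter (4.90e-25). Without the circle at chr17:39844698-39844867, an alternative chosen after seeing the data, its kept circles had 32, 33 and 39 reads at ZT21 and 25, 46 and 90 at ZT1, a log2 fold change of -0.11 ± 0.32 (p 0.737), so the difference came from that 1 circle. Gm1043 and Psmd2, each led by the circle described above, had log2 fold changes of -0.97 ± 0.37 and -1.60 ± 0.61 (adjusted p 0.999 for both), the latter -2.41 to -1.39 when single replicates were left out.

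Lists of genes by role were read from the same host-gene test, in which 332 of 618 genes were higher at ZT1, 286 lower, and the median log2 fold change was 0.02. Clock genes gave few circles: of 27, 5 had a kept circle and 1 was tested, the transcription factor gene Npas2, a partner of Arntl, with 7, 13 and 15 reads at ZT21 and 7, 11 and 22 at ZT1 (-0.49 ± 0.56). Arntl, the 3 Per genes, Cry2, Nr1d1 and Dbp had no kept circle. Of 24 genes induced by neuronal activity, 1 had a kept circle, the scaffold gene Homer1, with 30, 39 and 36 reads at ZT21 and 27, 38 and 83 at ZT1 (-0.22 ± 0.32). Fos, Arc, Egr1, Npas4 and Bdnf had no kept circle.

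At the presynaptic active zone, 17 of 26 genes had a kept circle and 9 were tested, 6 higher and 3 lower with a median of 0.16; none was called or reached an unadjusted p under 0.05. Rims1, a scaffold of vesicle release sites, had the most reads, 165, 182 and 173 at ZT21 and 171, 243 and 575 at ZT1 (0.18 ± 0.17). Its relative Rims2 had 62, 70 and 99 at ZT21 and 45, 87 and 201 at ZT1 (-0.24 ± 0.21). Both genes had overlapping groups.

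Of 26 genes of the postsynaptic scaffold, 17 had a kept circle and 11 were tested, 6 higher and 5 lower; the median of 0.06 turned to -0.03 with only the 6 samples fitted. Anks1b, a protein of the postsynaptic density, had 72, 98 and 108 reads at ZT21 and 81, 97 and 244 at ZT1 (-0.10 ± 0.18), and Dlgap1, which links PSD-95 to Shank, had 66, 81 and 81 at ZT21 and 70, 94 and 234 at ZT1 (0.07 ± 0.37, and -0.04 with all listed circles summed). The 1 gene of this list with an unadjusted p under 0.05 (3.72% of all 618 genes) was Dlg1, a scaffold of the PSD-95 family. It was lower at ZT1 (-0.66 ± 0.30, p 0.0398, adjusted 0.999).

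Glutamate receptors had 17 of 22 genes with a kept circle and 5 tested, 3 higher and 2 lower with a median of 0.30. Grm5 was the 1 with an unadjusted p under 0.05 (3.72% of all 618 genes). Grin2b, an NMDA receptor subunit, had 20, 19 and 19 reads at ZT21 and 25, 25 and 67 at ZT1 (0.30 ± 0.33). Of 14 GABA receptor genes, 11 had a kept circle and 2 were tested, both lower with a median of -0.14: Gabra2 (-0.03 ± 0.37) and Gabra4 (-0.26 ± 0.73). Gabra2 turned to 0.05 without a filter and Gabra4 to 0.04 with the further column.

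Ion channels and transporters had 30 of 41 genes with a kept circle and 16 tested, 8 higher and 8 lower, and the median of 0.01 turned to -0.01 when scaled by total circular reads or by DESeq2 and to -0.11 with the further column. Slc8a1 as a whole had 162, 192 and 205 reads at ZT21 and 175, 255 and 535 at ZT1 (0.09 ± 0.16), and Ryr2, a calcium release channel, had 62, 68 and 49 at ZT21 and 59, 65 and 184 at ZT1 (0.03 ± 0.21, and -0.04 with the further column). Synaptic adhesion genes had 26 of 36 with a kept circle and 14 tested, 12 higher and 2 lower with a median of 0.18, none at an unadjusted p under 0.05. The most abundant was Nell2, with 27, 379 and 376 reads at ZT21 and 323, 481 and 75 at ZT1 (0.10 ± 1.07).

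Of 31 genes that act in splicing, editing or circle formation, 12 had a kept circle and 8 were tested, 4 higher and 4 lower; the median of 0.06 turned to -0.11 with only the 6 samples fitted and to -0.06 with the further column. Elavl3, a neuronal RNA-binding protein, had 54, 45 and 76 reads at ZT21 and 46, 55 and 136 at ZT1 (-0.28 ± 0.21), and Khdrbs3, a splicing regulator, had 18, 22 and 24 at ZT21 and 11, 38 and 47 at ZT1 (-0.10 ± 0.31, and 0.08 with all listed circles summed). Long noncoding RNAs had 8 of 10 genes with a kept circle and 7 tested, 4 higher and 3 lower with a median of 0.27, which fell to 0.05 with only the 6 samples fitted. They included the 1 called gene, Snhg14 (0.162% of all 618 genes were called), and 2 more at an unadjusted p under 0.05 (3.72% of all), Gm26917 and Malat1; the list was drawn up with such results known. Malat1 as a whole had 0, 6 and 4 reads at ZT21 and 14, 8 and 51 at ZT1 (2.04 ± 0.87, p 0.0275, adjusted 0.999).

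**Figure D4:**
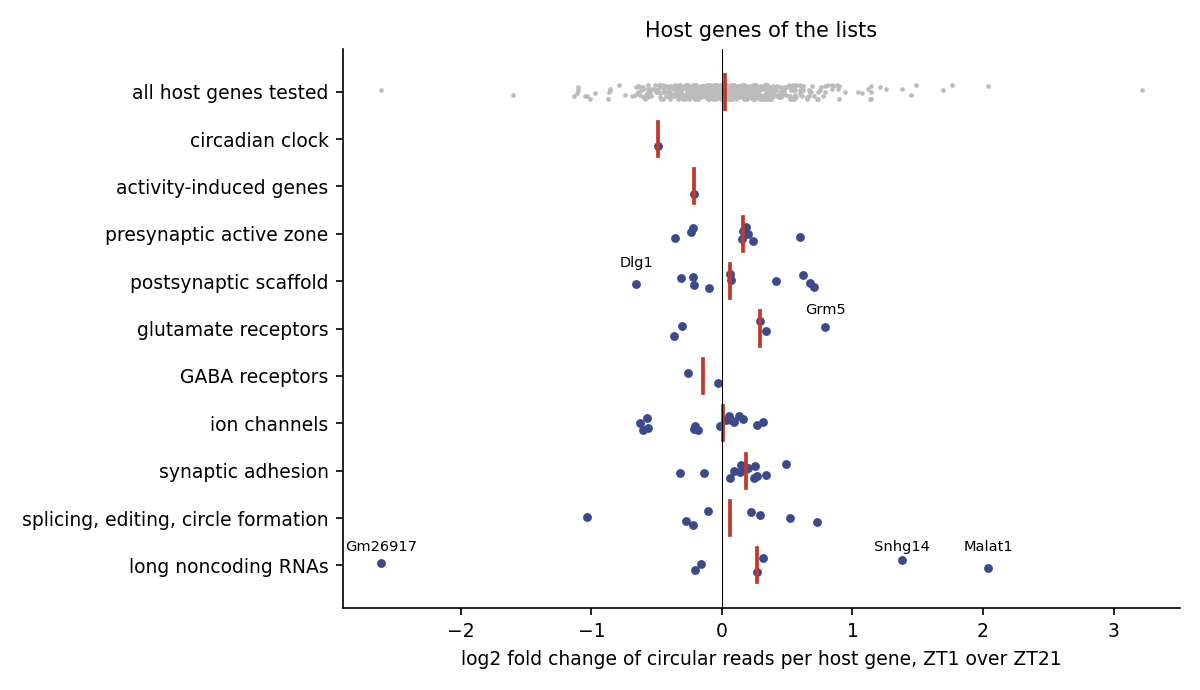
Log2 fold change of circular reads per host gene, ZT1 over ZT21 (x axis), for the 618 host genes tested and for the tested members of 10 lists (y axis); points are genes and red bars medians. All 618 genes lie between -2.61 and 3.22. The long noncoding RNAs hold values from -2.61 to 2.04 and the synaptic lists from -0.66 to 0.79. The list of long noncoding RNAs was drawn up with such results known, so its range says nothing about such genes as a class.

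The same step from ZT21 to ZT1 was compared between hippocampus and frontal cortex, whose 6 samples came from the same time points, by testing the difference of the changes. In edgeR 0 of 710 circRNAs had a different change at an adjusted p under 0.05 (0%), and 22 had an unadjusted p under 0.05 (3.1%). By DESeq2 there was 1 (0.141%), the Gm26917 circle. Without a filter 10 of 6656 were called (0.15%), led by the Gm26917 and Nell2 circles and a circle at chr17:39845364-39845519 that lies opposite Gm26917. Among the 6 hippocampus samples of ZT21 and ZT1 this last circle had reads in ZT1 replicate 2 alone (40 reads). Over all 18 hippocampus samples it had reads in 3. The smallest p belonged to the Gm26917 circle, followed by the Malat1 circle.

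In frontal cortex the Gm26917 circle had 0, 0 and 0 reads at ZT21 and 0, 75 and 103 at ZT1, so it was listed at ZT21 only in hippocampus and at ZT1 only in frontal cortex (p 2.79e-04, adjusted 0.198). The Malat1 circle had 13, 10 and 0 reads at ZT21 and 4, 0 and 0 at ZT1 in frontal cortex (p 0.00376, adjusted 1.00). A circle of the zinc finger gene Zfp644, with 5, 10 and 9 reads at ZT21 and 16, 15 and 29 at ZT1 in hippocampus, was called in 1 fit, that without frontal cortex ZT1 replicate 3.

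Summed per host gene, edgeR called 1 of 718 differences between the tissues (0.139%), with 21 at an unadjusted p under 0.05 (2.92%), and DESeq2 called the same 1. It was Gm26917, whose change in hippocampus lay below that in frontal cortex by a log2 value of -6.55 (p 1.57e-05, adjusted 0.0113). All its listed circles had 190, 222 and 220 reads at ZT21 and 31, 59 and 146 at ZT1 in hippocampus and 8, 14 and 13 at ZT21 and 15, 86 and 121 at ZT1 in frontal cortex. As shares of listed reads the frontal cortex groups overlapped, with 0.0648% in ZT1 replicate 1 and 0.0805% in ZT21 replicate 3, so the rise there rests on 2 samples. The adjusted p was 0.0767 without frontal cortex ZT21 replicate 1 and 0.0639 without frontal cortex ZT1 replicate 2, so the call did not hold without either sample. With the circle at chr17:39844698-39844867 left out, it was not called either (-1.34 ± 0.71, adjusted p 0.992). The labels do not say whether the 2 tissues of a replicate came from the same mouse, and the fit has no term for the animal. This host-gene comparison between tissues was added after the data were seen.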

How the data were processed

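The authors aligned rRNA-depleted total RNA reads to GRCm38 with BWA and identified circles with CIRI2; the deposited values are raw counts of head-to-tail junction reads per circRNA and sample, with no normalization, and the smallest count above 0 is 2. Depth ranged from 18215 to 73252 listed circular reads over the 6 samples. Circles were placed on GENCODE vM21 genes and exons, and assigned to genes of the same strand.

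Following the study's methods, a circRNA had to appear in 2 or more replicates of a time point. They were tested with edgeR 4.0.16 (R 4.3.3; TMM, filterByExpr, quasi-likelihood test, ZT1 minus ZT21) over all 18 hippocampus samples, with p adjusted by Benjamini-Hochberg over all circRNAs tested and a threshold of 0.05; sums per host gene were tested the same way. Normalized reads are counts scaled by TMM and by the circular reads tested in each sample, to the mean library. The difference between tissues was an interaction term over 36 samples, with no term for the animal, since the labels do not say which samples share one. Composition measures used two-sided exact permutation tests in scipy 1.17.1, Wilson intervals at 95%, and the number at equal depth the expected number under rarefaction. Fold bounds used a floor of 3 counts per library. They fail where a listed 0 hides more reads than that, which was not tested.

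Alternatives were DESeq2 1.42.0, other scalings, no filter, fits of the 6 samples alone, a replicate block, the further column, and each replicate left out. Named circles are Cdr1as, the 10 most abundant, the 5 smallest p in each direction, the 3 smallest of the tissue difference and any called under an alternative, up to 3 each; named genes are the 3 smallest p in each direction and the 2 most abundant tested members of each list. Not every item these rules select is described. Other circles and genes named in the text were chosen after their values were seen. Members and lists were chosen with earlier results of these data known. The study's own model of circular and linear counts could not be repeated, since linear counts were not used here. Both tools were tested on simulated data.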

Additional observations from a re-analysis of the deposited data

Results flagged for a closer look

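The change of circular reads of Gm26917 from ZT21 to ZT1 differed between the tissues: the change in hippocampus minus that in frontal cortex was -6.55 on the log2 scale (edgeR interaction term, p 1.57e-05, adjusted 0.0113 over 718 host genes). In hippocampus all its listed circles had 190, 222 and 220 reads at ZT21 and 31, 59 and 146 at ZT1, and in frontal cortex 8, 14 and 13 at ZT21 and 15, 86 and 121 at ZT1, where the groups overlapped as shares of listed reads. The adjusted p was 0.0767 without frontal cortex ZT21 replicate 1 and 0.0639 without frontal cortex ZT1 replicate 2, over a range of 0.00121 to 0.0767 when each of 12 replicates was left out. Most of these reads came from 1 circle, at chr17:39844698-39844867, with 146, 171 and 174 at ZT21 and 0, 0 and 0 at ZT1 in hippocampus, and 0, 0 and 0 at ZT21 and 0, 75 and 103 at ZT1 in frontal cortex. With it left out the log2 difference was -1.34 (adjusted p 0.992; chosen after seeing the data). The test was added after the data were seen, and the cause of the difference was not tested.

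A further column for hippocampus ZT1 replicate 3, which the comparisons above do not use, held 14951 circular reads of 2817 circRNAs, 6 of them absent from the first column. Snhg14 took 0.722% of its listed reads against 0.979% in the first column, and 0.327% of its kept reads (43 reads) against 0.529%, where the ZT21 samples had 0.192% to 0.272%. Cdr1as took 8.02% of its kept reads against 7.07%. The labels do not say how this column was made.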

How the results depend on the processing

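The 0 circRNAs called between ZT21 and ZT1 stayed 0 with DESeq2, DESeq2 size factors, total circular reads, the further column and each of 6 replicates left out (0 to 0). It was 1 with only the 6 samples fitted, 1 with DESeq2 on those (chosen after seeing the data), and 4 without a filter, where the median log2 fold change of all circles moved to 0.28. The 1 host gene called, Snhg14, became 2 without a filter and 2 with only the 6 samples fitted, Gm26917 being added to it; 0 with the further column, 0 with that column also in the rule on replicates (log2 fold change 0.98, adjusted p 0.892; chosen after seeing the data), and 0 to 0 without each of 6 replicates (adjusted p for Snhg14 0.0818 to 0.243). It stayed 1 with DESeq2, total circular reads, all listed circles (adjusted p 0.0399) and without the shallow ZT13 replicate 1 (0.0165), the last 2 chosen after seeing the data.

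Replicate numbers might pair samples. The deviations from the group mean of samples with the same number had correlations across circles of -0.167 to 0.0191, so no pairing was seen. With the number as a block, 0 circRNAs and 1 host gene were called (Snhg14, adjusted p 0.0149).

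Between tissues, the 0 circRNAs called became 10 without a filter, 1 with DESeq2 and 0 to 1 without each of 12 replicates (Zfp644, without frontal cortex ZT1 replicate 3). The 1 host gene, Gm26917, became 4 without a filter, 0 to 1 without each replicate, and 0 with its most counted circle left out (chosen after seeing the data).

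The difference in total reads was 1693 to 22861 without each replicate and -1205 with the further column, which replaces the deepest sample. The number at equal depth turned to -103 with all listed circles and -27.6 at a depth of 5381. The other 5 composition measures kept their direction under every alternative, but without each replicate the difference in the share over 100 kb ranged from 0.00136 to 0.106 points and in that of the 10 most abundant circles from 0.459 to 1.49, which was 0.182 with Cdr1as left out. Of 48 named log2 values, 41 never changed sign. Those that did were the Nell2 circle and gene, Dlgap1 (-0.0356 with all circles listed), Khdrbs3 (0.0833 likewise), Gabra2 (0.0521 without a filter), Gabra4 (0.0405 with the further column, 0.0554 with it also in the rule on replicates) and Ryr2 (-0.0425 and -0.0675 with these). Without each replicate the Nell2 circle ranged from -0.41 to 0.76, the Nell2 gene from -0.45 to 0.64, Gabra2 from -0.15 to 0.11, Gabra4 from -0.63 to 0.57, Ryr2 from -0.18 to 0.17 and Khdrbs3 from -0.496 to 0.0568. The causes were not tested.

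Depth limits the comparison: 582 of 5505 kept circRNAs had enough reads to be tested, and with 3 samples a group an exact test gives no p under 0.1.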

Other observations

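The pattern of a circle listed with many reads in some samples and none in others was seen for Gm26917 and Nell2 in both tissues. In hippocampus the Gm26917 circle reached 2.71% of listed reads in ZT13 replicate 1, the shallowest sample with 6754 listed reads; the other 2 samples of ZT13, at 0.787% and 0.717%, lay within its 0.681% to 0.802% at ZT21. In the further column of ZT1 replicate 3 both circles had 0 reads, as in the first column of that sample.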
